A study of Mus musculus with 2 samples.

Results

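The genes of sterol synthesis, uptake and efflux were examined in 4T1, a carcinoma line of the mouse mammary gland, cultured by itself or in the presence of M2 macrophages. The set held 32 genes, taken by symbol for their place in cholesterol metabolism. All 32 were among the 51912 Ensembl genes of the deposited table, and 30 of them counted as detected, with a mean of at least 1 TPM over both libraries. TPM is a transcript abundance corrected for transcript length, so it can be compared between genes of a library. It is a share of the library's total, so a difference between libraries also depends on their other genes. Results under other scalings are therefore given below.

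The study had 2 libraries of bulk RNA sequencing, 1 per group. The control was 4T1 cells alone, and the co-culture library was 4T1 cells kept for 3 days in the lower chamber of a transwell whose upper chamber held M2 macrophages (phagocytes in their alternatively activated state). RNA came from the lower-chamber cells, and neither group carried a labelled genetic change or drug. The title of the co-culture library reads M2_4T2, while its treatment label and the table's column name the cells 4T1. With single libraries there is no replicate error and no test between groups, so each difference below is between these 2 libraries only, and depth cannot be read from TPM.

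Cells make cholesterol from acetyl-CoA through mevalonate, the isoprenoid units and squalene. The enzymes are under the control of SREBP2, a transcription factor held in the endoplasmic reticulum (ER) with its escort SCAP. When ER sterol is low, SCAP carries SREBP2 to the Golgi, where it is cut and freed to enter the nucleus, and when sterol is high, INSIG proteins retain the complex. Excess sterol is turned into oxysterols, which activate the nuclear receptors LXR alpha and LXR beta. These raise genes of sterol export such as Abca1 and Abcg1, and Mylip, whose product limits uptake of lipoproteins. The comparison below sets 21 genes driven by SREBP2 against 4 genes driven by LXR. The SREBP2 set holds the 18 synthesis enzymes with Srebf2, Insig1 and Stard4. The LXR set holds Srebf1, Mylip, Abca1 and Abcg1. The other members, Npc1 among them, are in neither set, and the medians depend on this choice.

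The synthesis side was higher in co-culture as a group, and the efflux transporters Abca1 and Abcg1 were hardly measured in either library. Differences are given as a log2 ratio, log2((co-culture TPM + 1)/(control TPM + 1)), so positive values are higher in co-culture. Of the 21 genes of the SREBP2 set, all detected, 18 had higher values in co-culture and 3 had lower values, with a median log2 ratio of 0.54. The median of all 11258 detected genes was 0.17, and 64.5% of them had higher values. Dividing the co-culture library by the median ratio of abundant genes shifted the median of all genes by -0.11. The SREBP2 set stood 0.37 above that median before and after. Dividing by 1 factor moves nearly all genes alike, so it could hardly change this gap. In the LXR set only Srebf1 and Mylip were detected, with ratios of 0.41 and 0.20. The LXR side of the contrast thus rests on 2 genes, neither of them an exporter. In bulk RNA, fewer cells expressing a gene and less RNA per cell cannot be told apart.

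Across all members, 23 of the 30 detected genes had higher values and 7 had lower values, where 64.5% of all detected genes had higher values. Stard4, Idi1, Insig1 and Hmgcs1 were at least 2-fold higher (log2 ratio of at least 1), which is 4 of 30 members, while 4.95% of all detected genes passed that threshold. No member was at least 2-fold lower, a threshold that 2.14% of detected genes passed. At 1.5-fold, 8 members were higher, against 18.6% of detected genes, and Mvd and Msmo1 were lower, against 6.37%. Over all detected genes 69.8% of those past 2-fold were higher, and this share was 58.1% with the median ratio centring. After that centring only Idi1 and Stard4 remained past 2-fold, with ratios of 1.16 and 1.21, and with a pseudocount of 5 no member did.

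**Figure D1:**
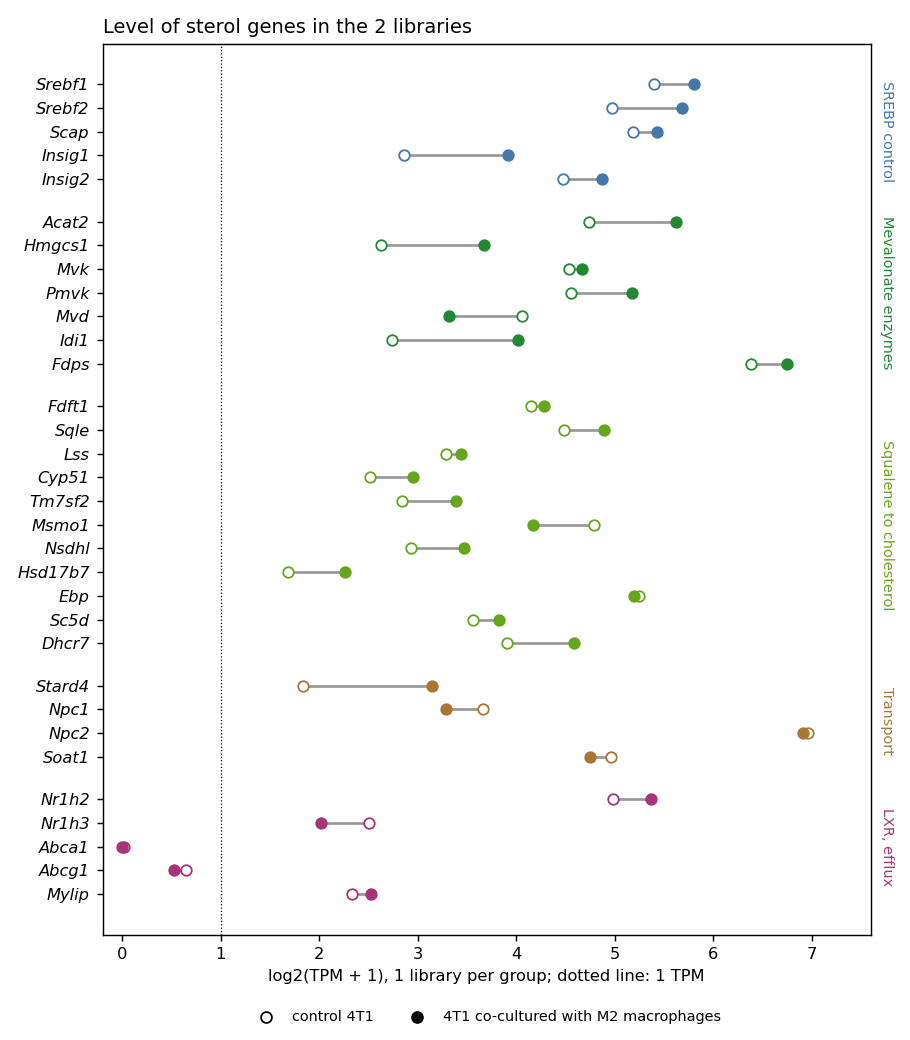
Level of each of the 32 genes as log2(TPM + 1) in the control library (open circles) and the co-culture library (filled circles), 1 library per group, ordered by role. Stard4, Idi1, Insig1 and Hmgcs1 have the widest gaps, the filled circles of Mvd and Msmo1 lie to the left of the open ones, and Abca1 and Abcg1 lie under the dotted line at 1 TPM.

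The 5 regulators of the pathway all had higher values in co-culture, as did 64.5% of all detected genes. Of these regulators, 2 lay above the 75th percentile of detected genes (0.48). Srebf2, which encodes SREBP2, had 30.5 TPM in control cells and 50.4 TPM after co-culture, a log2 ratio of 0.71. Srebf1, whose products drive mainly fatty acid synthesis and which LXR can induce, had 41.1 TPM and 54.8 TPM. Srebf1 was the more abundant of the pair in both libraries, and the ratio was larger at Srebf2. Scap, the escort of the SREBPs, had 35.5 TPM in control cells and 42.1 TPM after co-culture, a ratio of 0.24, close to the median of all genes.

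The INSIG genes differed from each other. Insig1, which is itself a target of SREBP2 and feeds back on it, lies on chromosome 5 of GRCm38 from 28071363 to 28078662 (ENSMUSG00000045294). It had 6.26 TPM in control cells and 14.1 TPM after co-culture, 2.25 times the control level, and its log2 ratio of 1.05 was reached by 4.15% of detected genes. Insig2, which does not depend on SREBP2 in the same way, had 21.2 TPM and 28.4 TPM, with a ratio of 0.40. Insig2 was the more abundant of the pair in both libraries, but the gap between them was narrower in co-culture.

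The enzymes from acetyl-CoA to farnesyl diphosphate showed the highest ratios of the synthesis pathway together with its lowest. Their median was 0.61, with 6 of 7 genes higher, against 64.5% of all detected genes. Their TPM summed to 180 in the control and 251 in co-culture. Acat2, the cytosolic thiolase of the first step, had 25.8 TPM in control cells and 48.3 TPM after co-culture. Its ratio of 0.88 lay under the 2-fold threshold and reached 1.01 once trends with transcript length and GC content were removed. Hmgcs1 (ENSMUSG00000093930), the cytosolic HMG-CoA synthase on chromosome 13 from 119690379 to 119708260, had 5.19 TPM and 11.8 TPM. Its ratio of 1.04 became 0.99 under the same correction, so this gene sits at the threshold.

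Idi1 (ENSMUSG00000058258), the isomerase that makes dimethylallyl diphosphate, lies on chromosome 13 from 8885501 to 8892451. It had 5.70 TPM in control cells and 15.2 TPM after co-culture, 2.66 times the control level, which is the largest ratio among the synthesis enzymes of the set. Pmvk, the second of the mevalonate kinases, had 22.5 TPM and 35.1 TPM, and Mvk, the first of them, had 22.2 TPM and 24.5 TPM. These 2 kinases thus had nearly equal levels in the control and different ones in co-culture. Fdps, which makes farnesyl diphosphate, was the most abundant synthesis enzyme of the set, with 82.6 TPM in control cells and 107 TPM after co-culture, a ratio of 0.37.

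Mvd, the decarboxylase between the kinases and Idi1, ran the other way. It (ENSMUSG00000006517) lies on the minus strand of chromosome 8 from 122433601 to 122443422 and had 15.7 TPM in control cells and 8.95 TPM after co-culture. The log2 ratio was -0.75, and 4.05% of detected genes had a ratio as low or lower. Its whole span lies inside Gm20388, a locus annotated on the plus strand from 119910841 to 124345722 that takes in many genes and had 3448 TPM in control cells and 4631 TPM after co-culture. No source used here states whether the authors' quantification used strand, so reads of Mvd could have been divided with that locus, and the value of Mvd is uncertain for this reason.

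The promoters of the 2-fold higher members that had an entry in the RefSeq table (GRCm38.p6), those of Hmgcs1, Idi1 and Insig1, are shown because these genes were higher together. Those of Mvd and Msmo1 were added, after their values were seen, as synthesis genes with lower values. Each sequence runs from 250 bases before to 50 bases after the start site, 5′ to 3′ on the gene's strand. Capitals mark matches, on either strand, to the SRE core TCACNCCAC, a binding site of SREBPs, or to CCAAT, the box bound by NF-Y, a factor that acts with SREBPs. The LXR element, AGGTCA repeated in the same direction after any 4 bases, was searched as well, and none of these motifs overlapped another in the sequences printed.
Hmgcs1, chr13:119690101-119690400, plus strand: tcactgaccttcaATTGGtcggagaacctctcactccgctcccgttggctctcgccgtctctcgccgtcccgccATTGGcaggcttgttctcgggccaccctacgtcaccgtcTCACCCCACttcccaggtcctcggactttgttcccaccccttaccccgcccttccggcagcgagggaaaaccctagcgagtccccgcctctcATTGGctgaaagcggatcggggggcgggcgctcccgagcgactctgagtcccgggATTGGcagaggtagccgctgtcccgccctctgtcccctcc
Idi1, chr13:8885356-8885655, plus strand: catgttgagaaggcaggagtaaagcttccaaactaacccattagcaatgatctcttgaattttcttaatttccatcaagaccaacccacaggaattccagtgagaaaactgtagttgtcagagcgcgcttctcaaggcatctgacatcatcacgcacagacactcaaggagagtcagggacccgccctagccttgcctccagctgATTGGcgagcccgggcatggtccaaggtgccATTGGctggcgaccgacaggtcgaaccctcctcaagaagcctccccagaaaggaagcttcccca
Insig1, chr5:28071162-28071461, plus strand: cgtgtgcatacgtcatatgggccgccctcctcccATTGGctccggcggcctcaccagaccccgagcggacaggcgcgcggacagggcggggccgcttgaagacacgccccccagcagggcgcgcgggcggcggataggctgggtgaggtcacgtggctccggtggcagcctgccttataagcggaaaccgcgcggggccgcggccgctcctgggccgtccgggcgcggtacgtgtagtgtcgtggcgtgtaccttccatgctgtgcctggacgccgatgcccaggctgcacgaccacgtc
Mvd, chr8:122443373-122443672, minus strand: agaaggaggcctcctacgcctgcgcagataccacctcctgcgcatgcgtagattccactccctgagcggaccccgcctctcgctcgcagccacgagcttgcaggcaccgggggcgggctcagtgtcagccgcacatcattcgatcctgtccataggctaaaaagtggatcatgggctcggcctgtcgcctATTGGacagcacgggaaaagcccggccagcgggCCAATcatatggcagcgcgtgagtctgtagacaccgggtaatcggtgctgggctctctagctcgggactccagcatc
Msmo1, chr8:64733529-64733828, minus strand: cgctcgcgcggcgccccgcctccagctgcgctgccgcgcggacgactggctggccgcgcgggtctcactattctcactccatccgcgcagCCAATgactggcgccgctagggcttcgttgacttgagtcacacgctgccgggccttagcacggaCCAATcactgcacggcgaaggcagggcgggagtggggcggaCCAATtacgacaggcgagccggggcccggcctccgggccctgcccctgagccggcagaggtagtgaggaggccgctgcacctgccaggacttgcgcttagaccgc

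The CCAAT box was common in these genes whichever way they differed. It was present in 22 of 35 promoters of the 26 members with an entry, against 37.4% of all 32851 promoters of the same length. Hmgcs1 had 4 matches, Msmo1 had 3, Idi1 and Mvd had 2 each and Insig1 had 1, so the box was in the promoters of genes with higher and with lower values alike. The SRE core matched in 1 member promoter, that of Hmgcs1, from 137 to 129 bases before the start site, and in 1.24% of all promoters. The LXR element matched in 0 of the 35 member promoters, among them those of Abca1, Mylip and Srebf1, and in 0.0152% of all promoters. That form matched in only 5 of 32851 promoters, so 0 matches in 35 does not show that these genes lack an LXR site. Only exact forms of the SRE core and the LXR element were searched, so other forms would be missed. A match is a string of letters in this window and was not measured as a bound site.

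The steps from squalene onward differed less than the mevalonate steps. Their median was 0.41 over 11 genes, 9 of them higher, against 64.5% of all detected genes. None was past 2-fold in either direction, and their TPM summed to 155 in the control and 176 in co-culture. Fdft1, the squalene synthase that commits farnesyl diphosphate to sterols, had 16.7 TPM and 18.5 TPM, a ratio of 0.13. Sqle, the squalene epoxidase, had 21.4 TPM and 28.7 TPM, a ratio of 0.41. Lss, which closes the sterol rings to lanosterol, had 8.75 TPM and 9.88 TPM, and its ratio of 0.16 became -0.06 with the length and GC trends removed. The entry steps of this branch therefore lay near the median of all genes, apart from Sqle.

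The enzymes that turn lanosterol into cholesterol fell on both sides. Cyp51, the lanosterol demethylase, had 4.73 TPM in control cells and 6.76 TPM after co-culture, a ratio of 0.44. Tm7sf2, a sterol reductase, had 6.19 TPM and 9.49 TPM. Nsdhl and Hsd17b7 act in the removal of methyl groups from the ring. Nsdhl had 6.62 TPM and 10.1 TPM, a ratio of 0.54, and Hsd17b7 had 2.21 TPM and 3.79 TPM, a ratio of 0.58. Msmo1, the oxidase that acts in the same demethylation, had 26.7 TPM in control cells and 17.0 TPM after co-culture, a ratio of -0.62, at or below which lay 5.71% of detected genes. Msmo1 was the most abundant of these 3 demethylation genes in both libraries, and the gap to the others was narrower in co-culture.

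Among the last steps, Dhcr7, the reductase that yields cholesterol in one branch, had 14.0 TPM in control cells and 23.0 TPM after co-culture, a ratio of 0.68. Sc5d, the desaturase before it, had 10.9 TPM and 13.2 TPM. Ebp, the sterol isomerase, had 37.1 TPM and 35.6 TPM. Its ratio of -0.06 became 0.13 with the length and GC trends removed, so Ebp has no stable direction. Lss and Ebp were the only detected members whose sign changed under any of the scalings, pseudocounts or corrections tried.

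**Figure D2:**
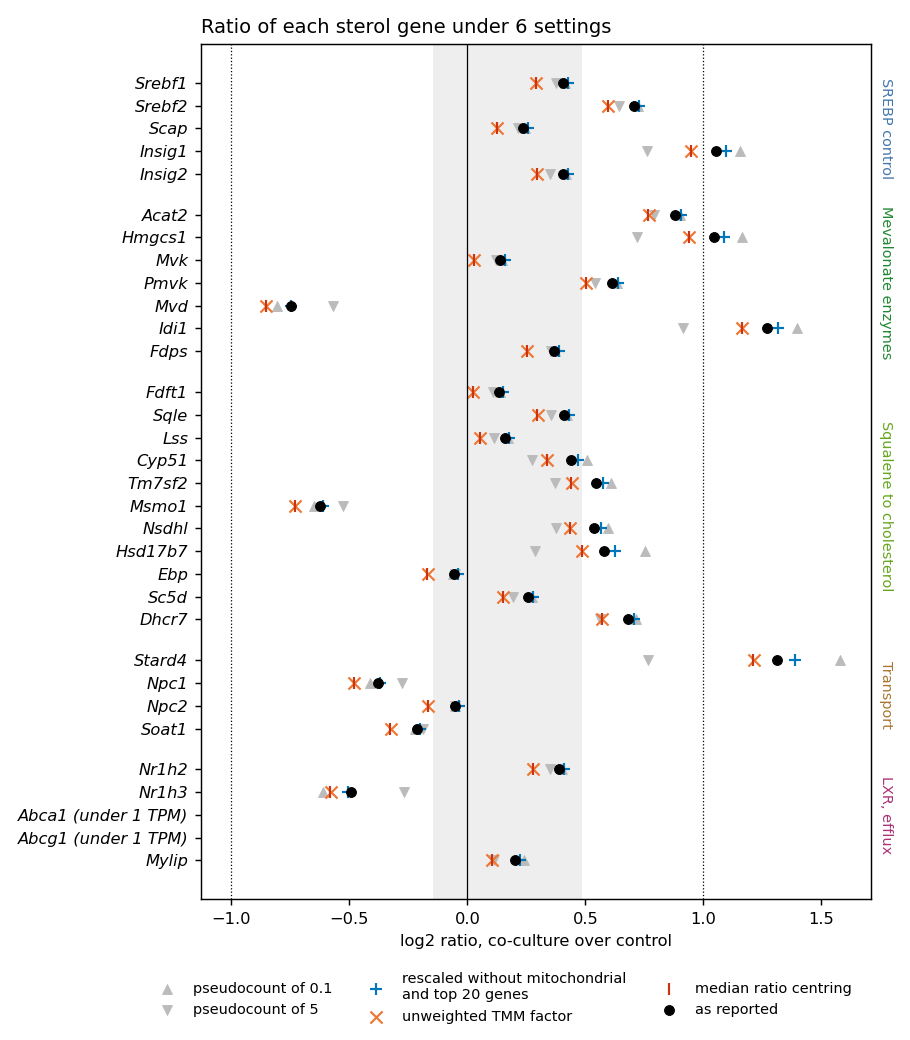
Log2 ratio (co-culture over control) of the 30 detected genes, by role, as reported (black circles) and under 5 other settings of scaling and pseudocount; the grey band spans the 25th to 75th percentile of all detected genes (-0.14 to 0.48) and dotted lines mark 2-fold. Idi1 and Stard4 stay past 2-fold under each scaling drawn but not with a pseudocount of 5, and Insig1 and Hmgcs1 also lie under the line with the median ratio centring and the TMM factor.

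The 4 members past 2-fold had low levels. Their mean levels over both libraries ran from 5.21 TPM (Stard4) to 10.4 TPM (Idi1). Among genes with a mean of at least 10 TPM, the median was 0.39 for 14 genes of the SREBP2 set and 0.11 for all 6808 genes. Below 10 TPM it was 0.54 for 7 genes of the set and 0.26 for all 4450 genes. The SREBP2 set thus stood above other genes in both ranges, and low genes in general had higher ratios. The ranges use the mean of both libraries, so they are not independent of the ratios. Idi1 and Insig1 were in the upper range only through co-culture, with 5.70 TPM and 6.26 TPM in control cells. Mvd was there only through the control, with 8.95 TPM after co-culture.

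Of the 4 members that move or store cholesterol inside the cell, Stard4 had higher and the other 3 had lower values in co-culture. Stard4 (ENSMUSG00000024378), a cytosolic sterol transfer protein and a target of SREBP2, had 2.56 TPM in control cells and 7.85 TPM after co-culture. Without a pseudocount, the co-culture value was 3.07 times the control TPM. The log2 ratio of 1.31, which includes the pseudocount, was the highest of all 32 genes and was reached by 1.96% of detected genes. Npc1 and Npc2 act together to release the cholesterol of endocytosed lipoproteins from lysosomes. Npc1 had 11.7 TPM in control cells and 8.77 TPM after co-culture, a ratio of -0.38, and Npc2, the most abundant member of the set, had 124 TPM and 120 TPM. Soat1, which esterifies cholesterol for storage, had 30.1 TPM and 25.8 TPM, a ratio of -0.21. None of these last 3 differences reached 1.5-fold.

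The LXR receptors differed in opposite directions. Nr1h2, the gene of the broadly expressed LXR beta, had 30.6 TPM in control cells and 40.4 TPM after co-culture, a ratio of 0.39. Nr1h3, the gene of LXR alpha, which is prominent in liver and macrophages, had 4.69 TPM and 3.04 TPM, a ratio of -0.49. LXR beta was thus the more abundant receptor transcript in both libraries, by a wider margin in co-culture. Mylip, a ubiquitin ligase induced by LXR, had 4.03 TPM and 4.78 TPM.

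The exporters among the members, Abca1 and Abcg1, were at the limit of the table. Abca1, which passes cholesterol to lipid-poor apolipoprotein, was at 0.01 TPM in the control and listed at 0 in co-culture, and Abcg1, which passes it to high-density lipoprotein, was at 0.57 TPM and 0.44 TPM. No fold is given for either. Over the whole LXR set of 4 genes, undetected ones included, the median ratio was 0.093. The difference between the SREBP2 and LXR medians was 0.23 over detected genes and 0.44 with no filter. It was -0.017 among genes with a mean of at least 10 TPM, where 14 genes of the SREBP2 set and Srebf1 alone of the LXR set were left. The medians there were 0.39 and 0.41, against 0.54 and 0.30 over detected genes, and with a pseudocount of 5 the difference was 0.11.

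**Figure D3:**
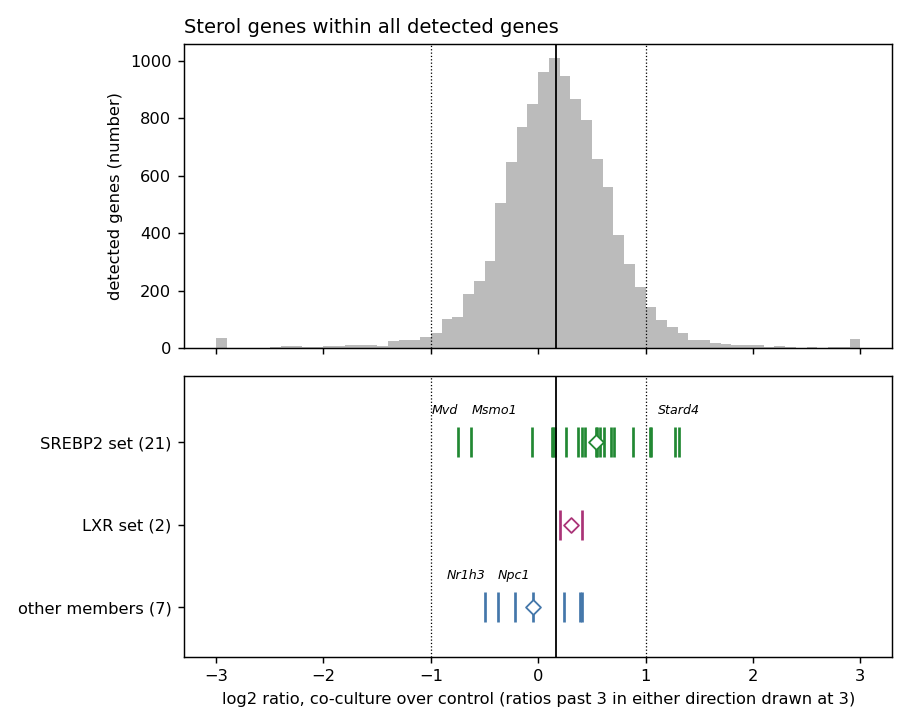
Top, number of detected genes by log2 ratio (co-culture over control) in bins of 0.1; bottom, each detected member as a tick, with a diamond at the median of its set and the number of genes in brackets. The black line is the median of all detected genes (0.17) and dotted lines mark 2-fold; most ticks of the SREBP2 set lie to its right, with Mvd and Msmo1 far to the left.

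Macrophage transcripts were checked because macrophages express efflux and LXR genes strongly. Of 20 macrophage markers 2 were detected, namely Cd68, with 57.7 TPM in control cells and 27.8 TPM after co-culture, and Cd14, with 8.87 TPM and 12.4 TPM. The other 18 summed to 0.12 TPM in control cells and 0.54 TPM after co-culture, with Aif1 the highest at 0.27 TPM. Both libraries list Tyrobp and Adgre1 at 0, Lyz2 was at 0.04 TPM in co-culture, and Csf1r was at 0.03 TPM and 0.01 TPM. Of 11 epithelial markers 7 were detected, among them Krt8 at 548 TPM and 630 TPM, Krt18 at 439 TPM and 484 TPM and Tjp1 at 15.7 TPM and 27.7 TPM, while Epcam was listed at 0 in both libraries and Cdh1 was at 0.04 TPM and 0.01 TPM. Krt19 was the only epithelial marker past 2-fold, with 0.18 TPM in control cells and 2.64 TPM after co-culture (log2 ratio 1.63). It counted as detected only through the co-culture library.

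Beyond the 32 members, 66 further genes of sterol and isoprenoid metabolism were examined in 5 lists, of which 56 were detected. Of these, 35 had higher and 21 lower values, with a median of 0.15. The share of higher genes was 62.5%, against 64.5% of all detected genes. At least 2-fold higher were 3 genes and at least 2-fold lower were 2, against 4.95% and 2.14% of all detected genes. In the list of other synthesis genes all 9 had higher values, none past 2-fold, with a median of 0.20. Its largest ratios were those of Lbr, a lamin receptor that also has sterol reductase activity, with 24.8 TPM in control cells and 41.1 TPM after co-culture (0.71), and of Erg28, with 24.0 TPM and 34.1 TPM (0.49).

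Among 10 genes that act on the SREBP machinery 2 were at least 2-fold higher, where 4.95% of all detected genes were. None had a log2 ratio of -1 or lower, where 2.14% of all detected genes did. Rnf145, a ubiquitin ligase that acts on SCAP, had 34.8 TPM in control cells and 81.7 TPM after co-culture, a ratio of 1.21. Erlin2, part of an ER membrane complex for sterol-dependent degradation, had 8.42 TPM and 20.3 TPM, a ratio of 1.18. Paqr3, a Golgi protein that binds SCAP, lay on the other side, with 3.74 TPM in control cells and 1.46 TPM after co-culture. Its ratio was -0.95 as computed here, -1.01 after median ratio centring and -0.44 for a pseudocount of 5. The list, which includes the site proteases that cut SREBPs, had 6 higher and 4 lower genes and a median of 0.30. Of all detected genes, 64.5% were higher.

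In the storage and transfer list 11 of 20 detected genes had higher values, against 64.5% of all detected genes, and none was 2-fold higher. At least 2-fold lower were 2 genes, where 2.14% of all detected genes were. Soat2, the second cholesterol esterification enzyme, had 2.87 TPM in control cells and 0.16 TPM after co-culture, a ratio of -1.74. It counted as detected only through the control library. Its ratio was -3.51 with a pseudocount of 0.1 and -0.61 with a pseudocount of 5. Soat1 had 30.1 TPM and 25.8 TPM. Soat1 was therefore the main esterification transcript in both libraries. Stard5, a sterol-binding relative of Stard4, had 7.28 TPM and 2.93 TPM, a ratio of -1.08, so these START family genes differed in opposite directions. The list had a median of 0.12.

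The isoprenoid branch uses farnesyl diphosphate for prenylation, dolichol and ubiquinone. It had a median of 0.00 over 10 genes, 5 higher and 5 lower, where 64.5% of all detected genes were higher. Pggt1b, the catalytic subunit of a geranylgeranyl transferase, had 3.39 TPM in control cells and 8.80 TPM after co-culture, a ratio of 1.16, and Pdss2 had a ratio of 0.55. The last list held 16 partners, targets and oxysterol genes of LXR, without the LXR targets placed elsewhere, such as Mylip. Only 7 of the 16 were detected, none past 2-fold. Of these, 4 were higher and 3 lower, with a median of 0.043. The largest ratios there were those of the phospholipid enzyme Lpcat3, an LXR target, with 23.7 TPM and 35.2 TPM (0.55), and of Rxra, which encodes a partner receptor of LXR, with 9.82 TPM and 14.3 TPM (0.50). With a pseudocount of 5, Rnf145 (1.13) was the only one of the 5 further genes past 2-fold that was still past it. With the length and GC trends removed, Pggt1b was at 0.86 and Stard5 at -0.98.

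**Figure D4:**
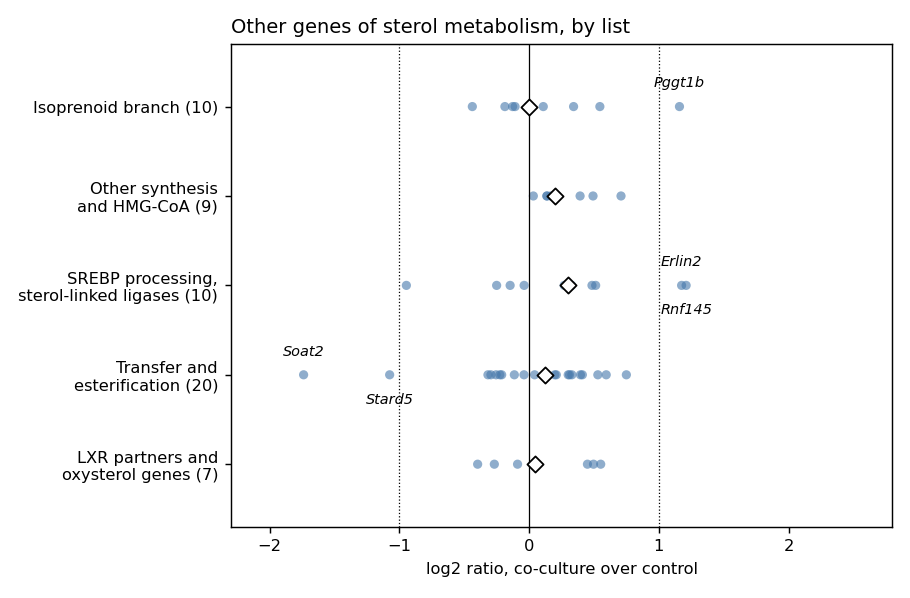
Log2 ratio (co-culture over control) of the 56 detected further genes of sterol and isoprenoid metabolism in 5 lists, with a diamond at each list median and the number of genes in brackets; dotted lines mark 2-fold. Rnf145 has the highest ratio, 1.21, and Soat2, which was under 1 TPM in co-culture, has the lowest, -1.74.

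Other annotated genes overlap 7 of the members with protein-coding loci, of which Mvd is described above. The overlaps of Srebf1 with Rai1, Fdft1 with Ctsb, Cyp51 with Akap9 and Npc1 with Rmc1 are on opposite strands, and those of Fdps with Gm43738 and Tm7sf2 with Vps51 are on the same strand. Ctsb was at 152 TPM in control cells and 136 TPM after co-culture, well above Fdft1, and Gm43738 was at 0.02 TPM and listed at 0. Reads in shared bases could be assigned to either gene, so values of these members carry that uncertainty.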

How the data were processed

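RNA sequencing of 4T1 cells was analysed from 1 table of TPM values that the authors deposited, with 1 column per library, rounded to 2 decimals. HISAT2 2.1.0, RSEM 1.2.31 and the build GRCm38.p5 appear in the submitters' processing notes, without roles. No source used here states the annotation release, strandedness or filters. RSEM divides reads that fit several genes, so values of overlapping genes and paralogs are uncertain. TPM keeps no depth, so no counting interval could be given.

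Of 52796 rows, 51912 had Ensembl identifiers and were used, and 51633 of these matched a GENCODE M21 symbol. Positions are 1-based from GENCODE M21 on GRCm38, and promoter sequences are from RefSeq on GRCm38.p6, with an entry for 26 of 32 members. Ratios used a pseudocount of 1, which understates the change of low genes. Detection required a mean of at least 1 TPM, and the threshold was a log2 ratio of 1 or -1.

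With 1 library per group no test, p-value or replicate error exists. Groups were taken from the treatment labels. Members and gene lists were chosen with earlier results of these data known. Named genes were all members, and from each further list those past 2-fold and the 2 with the largest absolute ratios. Paqr3, Krt19 and Cdh1 were named after their values were seen. A few genes of these lists are not reported here. Alternatives tried were pseudocounts of 0.1 and 5, no filter, a minimum mean of 10 TPM, a 1.5-fold threshold, centring on the median ratio of genes of at least 10 TPM, an unweighted TMM factor (trims of 30% and 5%), rescaling without mitochondrial and the 20 most abundant genes, and removal of lowess trends (span 0.3) on length and GC content of the longest transcript. A restriction to protein-coding genes was added after the data were seen. Ratios were computed with pandas 2.3.3 and numpy 2.4.6 in Python 3.11.15 and the fold rule was tested on simulated data.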

Additional observations from a re-analysis of the deposited data

How the results depend on the processing

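No paired analysis was possible because each group had 1 library, and no library was left out. Depth is unknown from TPM. A count was taken as changed beyond 1.5 times and a median beyond 0.1 on the log2 scale. The SREBP2 set median stayed above that of all detected genes under every alternative run. Under each that kept all 21 of its genes, 18 were higher, but not always the same 18. With the length and GC trends removed, Lss turned lower and Ebp turned higher.

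The count of members at least 2-fold higher, 4 as reported, was 2 with the median ratio centring, the TMM factor and a minimum of 10 TPM, and 0 with a pseudocount of 5. At the minimum of 10 TPM the 2 genes were Idi1 and Insig1, whose means passed it only through the co-culture library. At 1.5-fold it was 8 higher and 2 lower. Over all detected genes the counts, 557 higher and 241 lower as reported, were 886 higher with a pseudocount of 0.1, 199 and 129 with a pseudocount of 5, 244 and 120 at a minimum of 10 TPM (fewer genes tested), and 2099 and 717 at 1.5-fold. Among protein-coding genes 155 were lower.

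With the median ratio centring the medians were 0.060 for all genes, 0.28 for members, 0.43 for the SREBP2 set and 0.20 for the LXR set, and with the TMM factor they were 0.060, 0.29, 0.43 and 0.20. The SREBP2 median was 0.35 with a pseudocount of 5 and 0.39 at a minimum of 10 TPM. The LXR median was 0.093 with no filter and 0.41 at a minimum of 10 TPM, where 1 gene was left. The difference of the SREBP2 and LXR medians was 0.11 with a pseudocount of 5, 0.44 with no filter and -0.017 at a minimum of 10 TPM, where fewer genes were counted.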
